A study of Mus musculus with 6 samples.

Results

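The serine/arginine-rich (SR) splicing factors and the heterogeneous nuclear ribonucleoproteins (hnRNPs) were followed in RAW264.7 cells, a mouse macrophage line, at rest (M0) and after stimulation (M1). Their genes were taken as all protein-coding entries of the deposited expression table whose symbol starts with Srsf or Hnrnp, which gave 32 members of 25124 genes, 11 Srsf and 21 Hnrnp. Both groups were grown in medium with 25 mM glucose, at fewer than 15 passages, and both carried a plasmid for the Cas9 nuclease with no guide, the control line made for work on cells lacking E4BP4. M1 cells were given lipopolysaccharide (LPS), a bacterial cell wall component, at 100 ng/ml and interferon-γ at 50 ng/ml, and M0 cells received neither. Each group had 3 samples. How long the cells were treated is not given in the sources used. Nothing says that the 3 samples of a group came from separate cultures, and the p-values rest on a spread that may be purely technical. Expression is given as TPM, a length-normalised unit in which reads are divided by the length of the transcript and by a factor of the library, and the RNA was poly(A)-selected.

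SR proteins bind exons through RNA recognition motifs and use a tail of arginine and serine repeats to recruit the spliceosome, so they mostly favour the inclusion of exons. Their activity and place in the cell depend on phosphorylation of that tail by the Srpk and Clk kinases. The hnRNPs coat newly made pre-mRNA, often act against exon inclusion, and also serve in mRNA export, stability and translation. Many genes of both families limit their own mRNA by splicing in an exon with an early stop codon, a so-called poison exon, which sends the transcript to nonsense-mediated decay. In macrophages several of these proteins are known to act on the splicing or decay of cytokine mRNA.

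Each library held 15615639 to 20283180 reads in genes. For a transcript of 2000 bases 1 TPM stood for 26.5 to 34.4 reads. The lowest Pearson correlation between 2 libraries of a group was 0.995 (log2(TPM + 1), across the 11297 tested genes, which are not independent replicates). No library stood apart in these correlations. Among all genes, M0 replicate 2 had 16774 above 0 TPM, against 15161 to 15782 in the other libraries. All 10 macrophage markers, among them Adgre1, Csf1r and Itgam, reached 1 TPM in 3 or more samples, and their summed level was 3010 to 3237 TPM at rest and 2783 to 2824 TPM in M1. The sum hides moves in opposite directions. Adgre1 lay between 2.149 and 3.075 TPM in M0 samples and between 66.3 and 68.3 TPM in M1 samples. Csf1r went from between 240 and 256 TPM in M0 to between 166 and 195 TPM in M1. Itgam went from between 177 and 187 TPM to between 115 and 133 TPM. The inducible nitric oxide synthase Nos2, a marker of M1 activation, lay between 0.134 and 0.209 TPM in M0 samples and between 522 and 621 TPM in M1 samples. No marker of T cells, B cells, fibroblasts, epithelium or endothelium reached 1 TPM in 3 samples, of 4, 4, 4, 4 and 3 in the table, and of 4 neutrophil markers only S100a8 did.

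Transcripts of both families were abundant and changed by modest amounts. Of the 32 genes 30 reached 1 TPM in 3 or more samples and were tested, and their median level was 125 TPM, against 15.4 TPM for all 11297 tested genes. Srsf6, Hnrnph2, Srsf3, Srsf7 and Srsf5 were higher in M1, and 19 members were lower. Among the 10 tested SR protein genes 4 were higher, 4 were lower and 2 were not called, and among the 20 hnRNP genes 1 was higher, 15 were lower and 4 were not called (limma on log2(TPM + 1), with a call where the p adjusted over all tested genes was below 0.05). Of all tested genes 18.7% were called higher and 61.5% lower. On the TPM scale no member was called with a change of 2-fold or more, whereas 17.8% of all tested genes were. The members' log2 changes ran from -0.73 to 0.53 and the median within-group coefficient of variation was 3.29%. In RNA from bulk cells, fewer cells holding a transcript and less of it per cell cannot be told apart.

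The direction of many of these small changes depended on the scale. On the TPM scale the median log2 change of all tested genes was -0.31, and dividing each library by its median-of-ratios factor moved that median to 0.02. After this rescaling 17 of the 30 members were higher in M1 and 5 were lower, against 38.1% and 35.4% of all tested genes. SR protein genes then numbered 8 higher and 1 lower, and hnRNP genes 9 higher and 4 lower. The median log2 change was -0.051 for SR protein genes and -0.28 for hnRNP genes on the TPM scale, and 0.31 and 0.081 after rescaling. On both scales Srsf3, Srsf5, Srsf6, Srsf7 and Hnrnph2 were called higher, and Srsf9, Hnrnpl, Hnrnpll, Hnrnpul1 and Hnrnph3 lower. Another 6 members were called lower on the TPM scale and higher after rescaling. Of all 11297 tested genes, 2111 were called higher on both scales, 4002 lower on both and 510 in opposite directions. "Rose" and "fell" are used below only for genes with the same call on both scales.

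**Figure D1:**
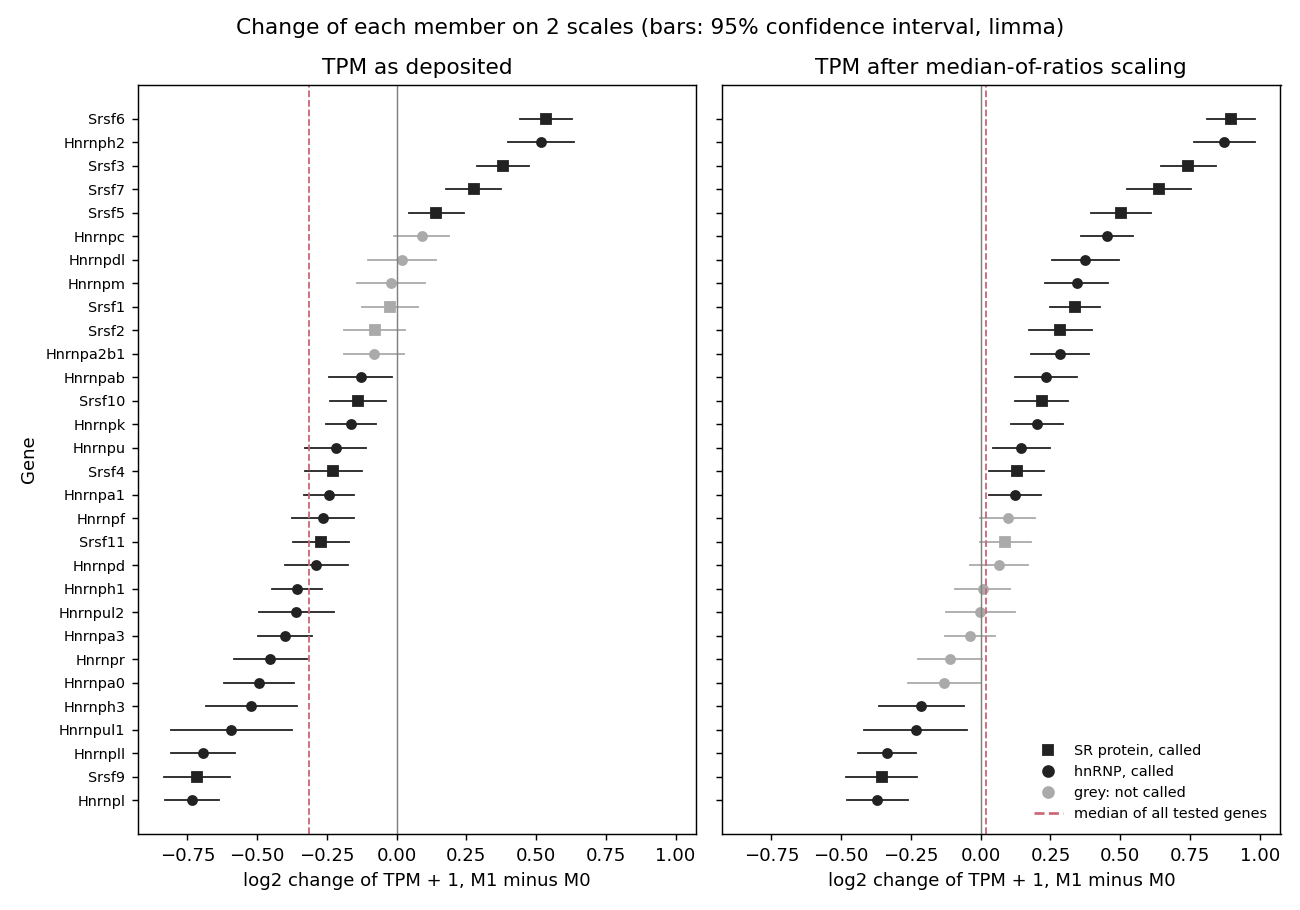
Fitted log2 change of TPM + 1, M1 minus M0 (x axis), of the 30 tested members (y axis), on the deposited TPM scale at left and after median-of-ratios scaling at right. Squares are SR proteins and circles hnRNPs, grey marks genes not called, bars are 95% confidence intervals from limma, and the dashed line is the median of all tested genes (-0.31 and 0.02). The order of the members is almost the same in both panels, with Srsf6 and Hnrnph2 at the top and Hnrnpl and Srsf9 at the bottom, while the zero line passes below Hnrnpdl at left and below Hnrnph1 at right.

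The genes that rose were mainly SR proteins. Srsf6 (NM_026499, chromosome 2, 162931508 to 162937120, mm10), an SR protein of the classical group, had 113, 116 and 116 TPM in the M0 samples and 165, 165 and 173 TPM in the M1 samples. All M1 samples lay above all M0 samples, and the mean level was 1.45-fold higher (log2 change 0.53, SE 0.042, limma adjusted p = 3.5e-07), with a log2 change of 0.90 after rescaling (limma adjusted p = 1.1e-08). Srsf3 (NM_013663, chromosome 17, 29032660 to 29043372), the smallest of the SR proteins and an adaptor for mRNA export, had 107, 111 and 109 TPM in the M0 samples and 146, 143 and 138 TPM in the M1 samples. The groups did not overlap, and Srsf3 was 1.31-fold higher in M1 (log2 change 0.38, SE 0.043, limma adjusted p = 6.5e-06), or log2 0.74 after rescaling (limma adjusted p = 1.2e-07). Its closest relative Srsf7 (NM_146083, chromosome 17, 80200080 to 80207305), which also links splicing to export, had 139.9, 133 and 136 TPM in the M0 samples and 169, 168 and 159 TPM in the M1 samples. Its M1 samples were again all above the M0 samples, at 1.21-fold (log2 change 0.28, SE 0.044, limma adjusted p = 0.00013), or log2 0.64 after rescaling (limma adjusted p = 1.2e-06).

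Srsf5 (NM_009159, chromosome 12, 80945499 to 80950506) had 110.5, 104 and 103 TPM in the M0 samples and 115, 118 and 117 TPM in the M1 samples. The groups lay close to each other without overlapping, and the rise of 1.10-fold was the smallest that was called (log2 change 0.14, SE 0.044, limma adjusted p = 0.012). Without M0 replicate 3 or M1 replicate 2 the adjusted p of Srsf5 was 0.0505 or 0.0501 (limma), above the threshold, while after rescaling its log2 change was 0.50 (limma adjusted p = 5.1e-06). The only hnRNP gene that rose was Hnrnph2 (NM_001313717, chromosome X, 134601179 to 134607057), an X-linked gene whose protein binds runs of guanine. It had 32.9, 34.4 and 31.7 TPM in the M0 samples and 48.2, 45.3 and 49.6 TPM in the M1 samples, a rise of 1.44-fold (log2 change 0.52, SE 0.054, limma adjusted p = 3.5e-06), or log2 0.87 after rescaling (limma adjusted p = 7.5e-08). Every M1 sample of Hnrnph2 was above every M0 sample. Reads from Hnrnph1 and Hnrnph2, which have similar coding sequences, could be exchanged between the 2 genes in the counting.

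The 150 bases before the transcription start of the 5 genes that rose are shown here. Those of Srsf9 and Hnrnpl, 2 of the 5 that fell, follow. Whether the genes that rose share any control was not tested. The sequences are from RefSeq (GRCm38.p6, the assembly of mm10), 5′ to 3′ on the gene's strand. Capitals mark matches on either strand. They were searched for a GC box with the letters GGGCGG. The box named for its letters CCAAT was the second motif. An ETS site was searched as CCGGAAG, and matches may overlap.
Srsf6 (chr2:162931358-162931507, plus strand): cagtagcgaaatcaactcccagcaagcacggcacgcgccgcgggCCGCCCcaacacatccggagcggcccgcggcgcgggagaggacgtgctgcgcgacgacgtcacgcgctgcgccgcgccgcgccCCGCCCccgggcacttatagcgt
Srsf3 (chr17:29032510-29032659, plus strand): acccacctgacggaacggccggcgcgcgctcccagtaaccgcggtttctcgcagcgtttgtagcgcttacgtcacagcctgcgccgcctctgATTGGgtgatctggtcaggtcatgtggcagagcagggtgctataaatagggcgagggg
Srsf7 (chr17:80207306-80207455, minus strand): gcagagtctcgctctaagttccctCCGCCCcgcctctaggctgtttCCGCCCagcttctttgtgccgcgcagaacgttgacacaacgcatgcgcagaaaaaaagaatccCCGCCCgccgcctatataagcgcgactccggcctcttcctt
Srsf5 (chr12:80945349-80945498, plus strand): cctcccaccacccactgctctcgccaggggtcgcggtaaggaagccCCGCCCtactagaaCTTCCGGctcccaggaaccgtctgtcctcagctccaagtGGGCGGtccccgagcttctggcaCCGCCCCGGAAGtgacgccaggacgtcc
Hnrnph2 (chrX:134601029-134601178, plus strand): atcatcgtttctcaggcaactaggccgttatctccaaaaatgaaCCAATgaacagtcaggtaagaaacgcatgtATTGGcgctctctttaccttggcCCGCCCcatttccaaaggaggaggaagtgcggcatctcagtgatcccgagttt
Srsf9 (chr5:115327027-115327176, plus strand): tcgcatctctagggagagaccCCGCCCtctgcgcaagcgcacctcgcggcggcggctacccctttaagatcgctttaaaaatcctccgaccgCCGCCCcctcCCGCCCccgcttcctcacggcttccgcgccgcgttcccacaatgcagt
Hnrnpl (chr7:28810740-28810889, plus strand): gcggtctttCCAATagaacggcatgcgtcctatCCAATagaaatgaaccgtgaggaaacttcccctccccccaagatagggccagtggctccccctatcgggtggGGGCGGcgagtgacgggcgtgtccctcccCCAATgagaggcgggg

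Promoters were found for 30 of the 32 members. For members the outermost listed start was used, and for the background the first listed start of each gene, so the windows are not chosen alike. The start used lay at 117900340 for Hnrnpf, whose deposited transcript starts at 117906782. For Hnrnph1 it lay at 50376990, against 50378291. For Hnrnpk, Srsf12 and Srsf11 it lay 395, 281 and 33 bases downstream of the start of the deposited transcript. The windows of Hnrnpk and Srsf12 thus lie wholly within the span of that transcript, and that of Srsf11 in part. Over the 250 bases before the start, 23 of the 30 held a GC box, or 76.7%, against 32.9% of all 27025 promoters and 60.1% of those of tested genes. A CCAAT box stood in 16, or 53.3%, against 34.5% and 37.2%, and an ETS site in 6, against 7.05% and 15.4%. The median number of CpG dinucleotides was 23 in the members, 16 in tested genes and 6 in all promoters. An interferon-stimulated response element (the letters GAAA repeated after any 2 bases) and the NF-κB consensus were in none of the 30 windows, and occur in 3.04% and 3.75% of all promoters and in 3.02% and 4.41% of those of tested genes. The interferon-γ activated site (TTCNNNGAA) was in 3 of the 30, those of Hnrnpa2b1, Hnrnph1 and Hnrnpa1l2-ps2, or 10.0%, against 7.18% of all promoters and 5.94% of those of tested genes. These are matches of letters within a short window and say nothing of binding.

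Among the genes that fell, Hnrnpl and Srsf9 had the largest changes. Hnrnpl (NM_177301, chromosome 7, 28810890 to 28822266), whose protein binds CA repeats, had 230.5, 227 and 218 TPM in the M0 samples and 136, 138 and 131 TPM in the M1 samples. The samples of the groups were far apart, and the mean was 1.67-fold lower in M1 (log2 change -0.73, SE 0.044, limma adjusted p = 3.2e-08), or log2 -0.37 after rescaling (limma adjusted p = 6.2e-05). Its paralog Hnrnpll (NM_144802, chromosome 17, 80029487 to 80062268), known for changing the splicing of Ptprc in lymphocytes, had 64.0, 65.3 and 67.4 TPM in the M0 samples and 39.0, 38.7 and 42.8 TPM in the M1 samples. It was 1.63-fold lower (log2 change -0.69, SE 0.052, limma adjusted p = 2.3e-07), or log2 -0.34 after rescaling (limma adjusted p = 8.0e-05), again without overlap. Srsf9 (NM_025573, chromosome 5, 115327177 to 115333080), a close relative of Srsf1 with a short serine and arginine tail, was the only SR protein gene that fell. It had 107, 102 and 116 TPM in the M0 samples and 64.9, 67.8 and 63.4 TPM in the M1 samples, and was 1.65-fold lower (log2 change -0.72, SE 0.054, limma adjusted p = 2.4e-07), or log2 -0.36 after rescaling (limma adjusted p = 0.00027).

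Hnrnpul1 (NM_178089, chromosome 7, 25736591 to 25754759), a relative of Hnrnpu, had 64.6, 81.8 and 76.9 TPM in the M0 samples and 45.5, 47.0 and 54.4 TPM in the M1 samples. Its M0 samples were more spread than those of the other members, yet all lay above M1. It was 1.52-fold lower (log2 change -0.59, SE 0.10, limma adjusted p = 0.00036), or log2 -0.23 after rescaling (limma adjusted p = 0.026). The transcript behind the TPM of Hnrnpul1 is a short one of 1287 bases, and its level relative to other genes rests on that length. Hnrnph3 (NM_001079824, chromosome 10, 63014664 to 63023849), the least abundant of the tested members, had 6.07, 6.79 and 7.04 TPM in the M0 samples and 4.29, 4.47 and 4.19 TPM in the M1 samples, from 629 reads over the M0 libraries and 459 over the M1 libraries. It was 1.54-fold lower (log2 change -0.52, SE 0.074, limma adjusted p = 4.8e-05), or log2 -0.21 after rescaling (limma adjusted p = 0.016). Hnrnpa0 (NM_029872, chromosome 13, 58125879 to 58128556), which binds AU-rich elements of cytokine mRNA in macrophages, had 179, 172 and 199.6 TPM in the M0 samples and 125, 131 and 133 TPM in the M1 samples. Its M1 samples were all lower (log2 change -0.49, SE 0.057, limma adjusted p = 9.2e-06), but the log2 change of -0.13 after rescaling (limma adjusted p = 0.064) was not called, with an interval of -0.26 to -0.0011.

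**Figure D2:**
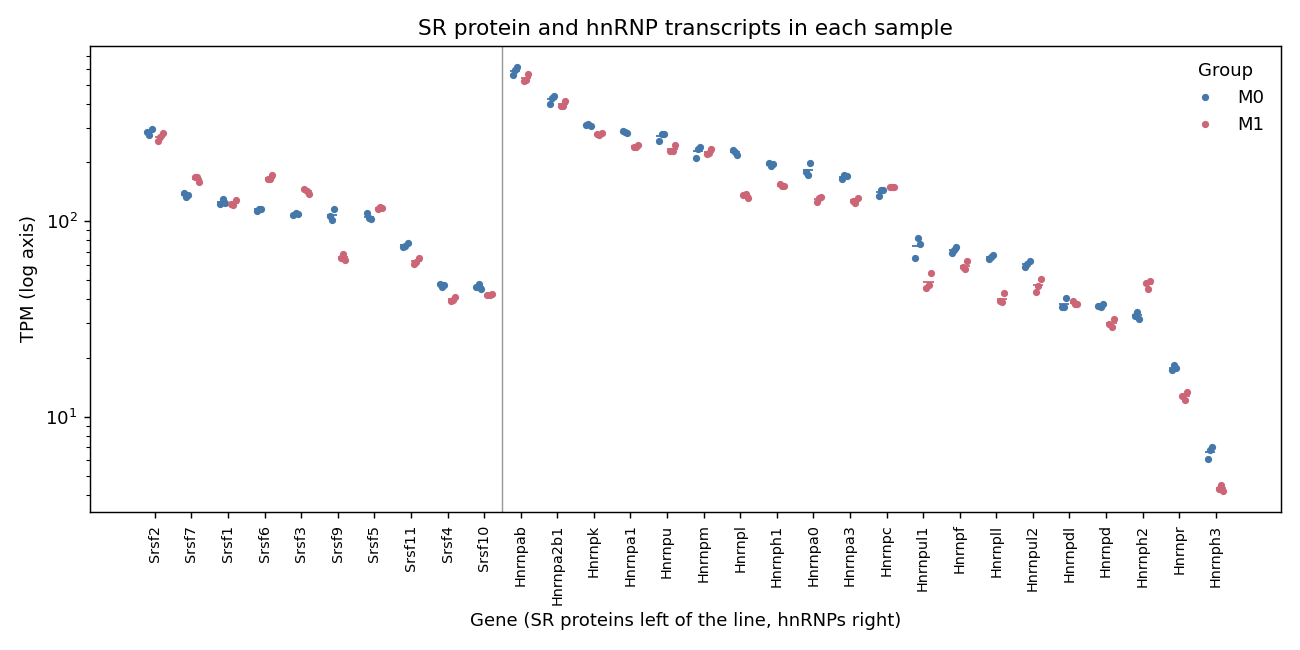
TPM on a log axis (y axis) of the 30 tested members (x axis, SR proteins left of the line and hnRNPs right, each in order of M0 level). Points are the 3 samples of M0 (blue) and of M1 (red) and short lines are group means. The most abundant members were Hnrnpab and Hnrnpa2b1 among hnRNPs and Srsf2 among SR proteins in both groups, and the samples of a group lie close together next to the gap between groups for Srsf6, Srsf3, Srsf9, Hnrnpl and Hnrnph2.

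Several of the most abundant hnRNP genes were called in opposite directions on the 2 scales. Hnrnpab (NM_010448, chromosome 11, 51600100 to 51606881), which binds single-stranded nucleic acids, had the highest level of all members, 561, 593 and 615 TPM in the M0 samples and 520.4, 529 and 568 TPM in the M1 samples. The groups overlapped, and M1 differed from M0 by -0.13 log2 units on the TPM scale (SE 0.052, limma adjusted p = 0.038) and by 0.23 after rescaling (limma adjusted p = 0.0017). Its call on the TPM scale was lost in 4 of the 6 fits that left out a sample, those without M0 replicate 2 or 3 or M1 replicate 1 or 2, where the adjusted p ran from 0.0869 to 0.148 (limma). In the annotation 29.1% of its exon bases overlap Phykpl on the other strand, at a mean of 10.1 TPM, and whether counting used the strand is not given in the sources. Hnrnpk (NM_001360493, chromosome 13, 58391142 to 58402512), which binds C-rich RNA, had 312, 315 and 308 TPM in the M0 samples and 278, 275 and 283 TPM in the M1 samples. Its M1 samples were all lower on the TPM scale (log2 change -0.16, SE 0.04, limma adjusted p = 0.0032), and the log2 change was 0.20 after rescaling (limma adjusted p = 0.0014). Hnrnpa1 (NR_104427, chromosome 15, 103240397 to 103246698), a splicing repressor that opposes Srsf1 at many exons, had 288, 287 and 284 TPM in the M0 samples and 241, 239 and 246 TPM in the M1 samples, with log2 changes of -0.24 (limma adjusted p = 0.00019) and 0.12 after rescaling (limma adjusted p = 0.023). Hnrnpu (NM_016805, chromosome 1, 178326734 to 178337815), a chromatin scaffold protein, had 258, 279 and 279.8 TPM in the M0 samples and 229, 228 and 246 TPM in the M1 samples, with log2 changes of -0.22 (limma adjusted p = 0.0018) and 0.14 after rescaling (limma adjusted p = 0.016). On the other strand 6.93% of the exon bases of Hnrnpu overlap Cox20, at a mean of 71.9 TPM, and 5.10% of those of Hnrnpk overlap Rmi1. The transcript behind the TPM of Hnrnpa1 is a non-coding one of 1313 bases. It lacks exons of 159 and 700 bases that a coding transcript of the gene holds. For Hnrnpab, Hnrnpk, Hnrnpa1 and Hnrnpu the sign of the change follows from the scaling chosen.

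The same held for Srsf4 and Srsf10 among the SR proteins. Srsf4 (NM_020587, chromosome 4, 131873639 to 131901725), one of the longest SR proteins, had 48.0, 46.0 and 47.0 TPM in the M0 samples and 39.2, 39.7 and 41.1 TPM in the M1 samples (log2 change -0.23, SE 0.046, limma adjusted p = 0.00077), and log2 0.13 after rescaling (limma adjusted p = 0.022). 43.0% of the exon bases of Srsf4 overlap Gm12992 on the other strand, which had a mean of 15.7 TPM. Srsf10 (NM_001284195, chromosome 4, 135856071 to 135865818), which turns into a splicing repressor when it loses its phosphates, had 46.4, 47.7 and 44.8 TPM in the M0 samples and 41.8, 41.8 and 42.3 TPM in the M1 samples (log2 change -0.14, SE 0.046, limma adjusted p = 0.016), and log2 0.22 after rescaling (limma adjusted p = 0.001). Without M0 replicate 2 or M1 replicate 2 the adjusted p of Srsf10 was 0.0683 or 0.0552 on the TPM scale (limma).

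Some abundant members were called only after rescaling. Srsf2 (NM_011358, chromosome 11, 116849897 to 116853094), a nuclear speckle protein, had 285, 275 and 297 TPM in the M0 samples and 259, 269.6 and 284 TPM in the M1 samples. The groups overlapped, and the log2 change of -0.078 (95% confidence interval -0.19 to 0.031) was not called. After rescaling Srsf2 was higher, at 0.29 (limma adjusted p = 0.00048), and without M1 replicate 3 it was called lower on the TPM scale (limma adjusted p = 0.0431). On the other strand 15.6% of its exon bases overlap Mettl23 and 9.74% Mfsd11. Hnrnpa2b1 (NM_182650, chromosome 6, 51460435 to 51469894), a partner of Hnrnpa1, had 399, 426 and 436 TPM in the M0 samples and 391, 388 and 413 TPM in the M1 samples, a log2 change of -0.081 (interval -0.19 to 0.027) and of 0.28 after rescaling (limma adjusted p = 0.0003). Without M0 replicate 1 the TPM value of Hnrnpa2b1 was -0.12 and was called (limma adjusted p = 0.0423). Hnrnpm (NM_001109913, chromosome 17, 33646233 to 33685458), known to hold back the splicing of Il6 pre-mRNA in macrophages, had 212, 235 and 241 TPM in the M0 samples and 219.8, 223 and 235 TPM in the M1 samples. Its groups overlapped (log2 change -0.019, interval -0.14 to 0.10; log2 0.34 after rescaling (limma adjusted p = 0.00013)), and 14.7% of its exon bases overlap March2 on the same strand. Hnrnpc (NM_001360178, chromosome 14, 52073377 to 52104021), which binds uridine tracts, had 134, 144 and 144 TPM in the M0 samples and 150.1, 149.6 and 150.3 TPM in the M1 samples. Every M1 sample was above the M0 samples, by a margin that was not called on the TPM scale (log2 change 0.091, SE 0.045, limma adjusted p = 0.083) and was called at 0.45 after rescaling (limma adjusted p = 3.7e-06).

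Most of the remaining tested members were called only on the TPM scale. Hnrnph1 (NM_001362530, chromosome 11, 50378291 to 50386528), the most abundant member of the F/H family, had 198, 192 and 196 TPM in the M0 samples and 155, 151 and 151 TPM in the M1 samples, all M1 samples lower (log2 change -0.36, SE 0.041, limma adjusted p = 8.3e-06), and a log2 change of 0.0069 after rescaling (interval -0.092 to 0.11). Srsf11 (NM_001093752, chromosome 3, 158010473 to 158036639), an SR protein that associates with early spliceosomes, had 73.9, 75.0 and 77.8 TPM in the M0 samples and 60.8, 62.1 and 64.6 TPM in the M1 samples, lower on the TPM scale (log2 change -0.27, SE 0.046, limma adjusted p = 0.00021) and not called at 0.089 after rescaling (limma adjusted p = 0.074). Hnrnpa3, Hnrnpr, Hnrnpul2, Hnrnpd and Hnrnpf likewise were lower on the TPM scale, with log2 changes between -0.45 and -0.26, and were not called after rescaling, where they lay between -0.11 and 0.10. Hnrnpd, also known as AUF1 and a decay factor of cytokine mRNAs with AU-rich elements, had a mean of 36.9 ± 0.874 TPM at rest against 30.1 ± 1.34 in M1 (mean ± SD, n = 3). Srsf1, the founding SR protein, had a mean of 126 ± 3.64 TPM at rest against 124 ± 3.85 in M1 and Hnrnpdl a mean of 37.8 ± 2.44 TPM at rest against 38.2 ± 0.879 in M1. Neither was called on the TPM scale (intervals -0.12 to 0.075 and -0.10 to 0.14), and both were higher after rescaling, at 0.34 and 0.37. The transcript behind the TPM of Hnrnpdl is a non-coding one.

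A pair of members were close to undetected. Srsf12 was listed at 0 in all samples but M0 replicate 1 and M1 replicate 2 and rested on 1 read over the M0 libraries and 2 over the M1 libraries. Hnrnpa1l2-ps2, annotated as protein-coding although its symbol is that of a pseudogene of Hnrnpa1, had 4 and 5 reads, with at most 0.164 TPM in any sample. No fold is given for either. Across the 30 tested members every M1 sample was above every M0 sample in 6 and below in 18, against 81.4% of all tested genes without overlap in either direction, on the TPM scale.

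Ratios between members of the same library do not depend on the scaling of the library. The summed level of the 11 SR protein genes was 1155 ± 16.3 TPM at rest and 1196 ± 13.4 TPM in M1, and that of the 21 hnRNP genes 3427 ± 96.4 and 2941 ± 82.4 TPM (mean ± SD, n = 3). After rescaling the means were 1014 and 1352 for SR proteins and 3008 and 3323 for hnRNPs, so that the summed hnRNP level was lower in M1 on one scale and higher on the other. The SR sum divided by the hnRNP sum was 0.348, 0.330 and 0.334 in the M0 samples and 0.409, 0.413 and 0.399 in the M1 samples. The groups did not overlap, and the balance stood 1.21-fold further towards SR protein transcripts in M1. With 3 samples against 3 an exact permutation test cannot go below p = 0.10, and none was run on these ratios.

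Within 8 pairs of related genes the ratio in M1 samples lay outside the range of the M0 samples in 7 and overlapped it in 1. The share among other pairs of genes was not computed, and 81.4% of single tested genes did not overlap between groups. The pairs were chosen after the values had been seen, so the ratios are a description. Hnrnph2 over Hnrnph1 was 0.166, 0.180 and 0.162 in M0 and 0.311, 0.300 and 0.328 in M1, 1.85-fold higher. Srsf6 over Srsf4 went from 2.36, 2.52 and 2.47 to 4.20, 4.15 and 4.21, and Srsf1 over Srsf9 from 1.15, 1.27 and 1.08 to 1.89, 1.78 and 2.02. In each of these pairs every M1 ratio was above every M0 ratio. Hnrnpl over Hnrnpll overlapped, at 3.60, 3.47 and 3.23 in M0 and 3.49, 3.56 and 3.06 in M1, so the fall of both left their ratio within the spread of the samples. Srsf3 over Srsf7 differed little, 0.768, 0.832 and 0.802 against 0.864, 0.854 and 0.867. The ratios of Hnrnpd to Hnrnpdl, of Hnrnpa1 to Hnrnpa2b1 and of Hnrnpul1 to Hnrnpul2 were 0.803, 0.894 and 0.846 of their M0 means. For Hnrnpa1 and Hnrnpdl the TPM in these ratios is that of a non-coding transcript. Srsf7 and Hnrnpll, which moved in opposite directions, both lie on the minus strand of chromosome 17, at the positions given with their levels.

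**Figure D3:**
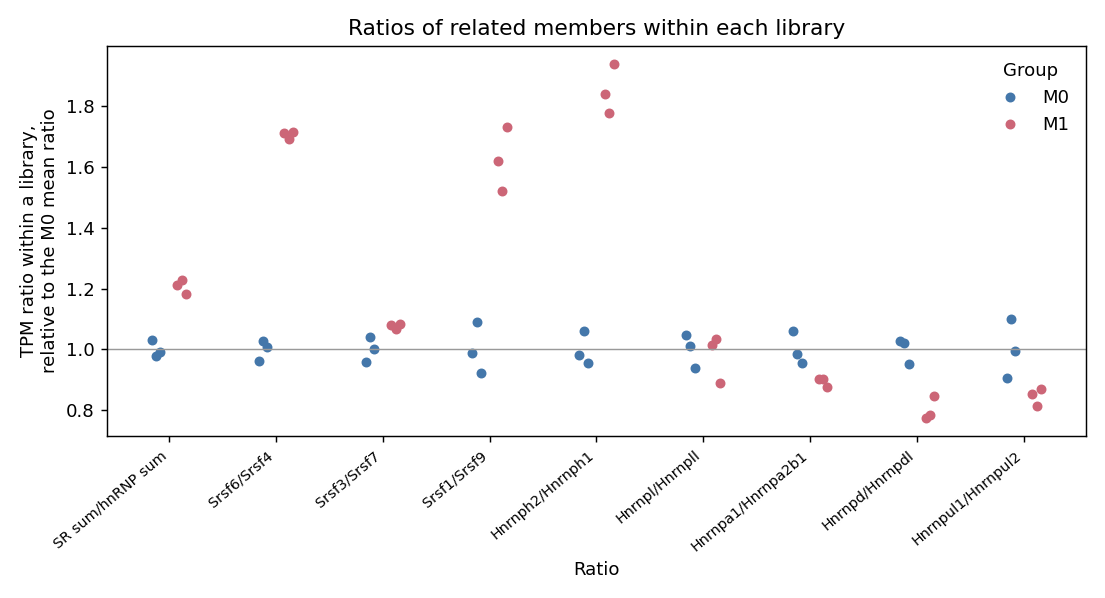
TPM ratio of related members within each library, divided by the mean ratio of the M0 samples (y axis), for the summed SR over the summed hnRNP level and 8 pairs of related genes (x axis). Points are the 3 samples of M0 (blue) and M1 (red). The M1 samples of Hnrnph2/Hnrnph1, Srsf6/Srsf4 and Srsf1/Srsf9 lie well above the M0 samples, those of Hnrnpd/Hnrnpdl below, and those of Hnrnpl/Hnrnpll among them.

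The counts of the lists that follow stand beside 18.7% higher and 61.5% lower of all tested genes on the TPM scale, and 38.1% and 35.4% after rescaling. Of the SR protein kinases with the phosphatase subunit Ppp1ca, 0 were higher and 6 lower of 9 tested genes on the TPM scale (median log2 change -0.30), and 3 higher and 1 lower after rescaling (median 0.052). Srpk2, a kinase of the arginine and serine tail, fell from 12.3 ± 0.760 TPM at rest to 6.27 ± 0.365 TPM (limma adjusted p = 4.3e-07), while Clk3 had a mean of 38.3 ± 0.266 TPM at rest against 28.3 ± 0.261 in M1 and was not called after rescaling. Of the import receptors, 0 were higher and 2 lower of 3 tested genes on the TPM scale (median log2 change -0.39), and 1 higher and 1 lower after rescaling (median -0.035). Tnpo1, which carries Hnrnpa1 into the nucleus, fell from 51.5 ± 2.66 TPM at rest to 29.1 ± 0.428 TPM (limma adjusted p = 5.7e-08), and Tnpo2 had a mean of 27.8 ± 0.461 TPM at rest against 21.1 ± 0.480 in M1, lower on the TPM scale and not called after rescaling. Tnpo3, the receptor for SR proteins, was called higher only after rescaling.

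Among SR-related factors, 7 were higher and 12 lower of 23 tested genes on the TPM scale (median log2 change -0.27), and 11 higher and 1 lower after rescaling (median 0.076). Tra2a and Tra2b, splicing activators with arginine and serine repeats, rose from 109 ± 3.50 TPM at rest to 248 ± 8.62 TPM and from 44.8 ± 1.21 TPM at rest to 78.0 ± 1.75 TPM (limma adjusted p = 8.0e-10 and 2.3e-08). On the TPM scale Tra2a was the only call of 2-fold or more in that list, and after rescaling there were 3. Scaf1 fell from 28.3 ± 1.73 TPM at rest to 19.5 ± 1.86 TPM, and Pnn, with a mean of 63.9 ± 1.76 TPM at rest against 48.8 ± 1.53 in M1, was called lower on the TPM scale only. Of other hnRNP-type proteins, 5 were higher and 20 lower of 31 tested genes on the TPM scale (median log2 change -0.27), and 14 higher and 8 lower after rescaling (median 0.059). Taf15 and Ewsr1, RNA-binding proteins that act in transcription and splicing, rose from 82.3 ± 2.97 TPM at rest to 117 ± 3.89 TPM and from 101 ± 3.12 TPM at rest to 126 ± 2.32 TPM. Mbnl1 and Celf2, splicing regulators with opposing effects on many exons, fell from 289 ± 6.36 TPM at rest to 128 ± 6.55 TPM and from 28.7 ± 1.20 TPM at rest to 13.2 ± 0.686 TPM (limma adjusted p = 1.3e-09 and 1.7e-08).

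In the core spliceosome, 8 were higher and 25 lower of 51 tested genes on the TPM scale (median log2 change -0.14), and 33 higher and 0 lower after rescaling (median 0.21). Prpf38a and Sf3a3 rose from 40.7 ± 2.64 TPM at rest to 85.1 ± 4.44 TPM and from 75.4 ± 2.93 TPM at rest to 108 ± 2.06 TPM, and the small nuclear ribonucleoprotein genes Snrnp25 and Snrnp40 were lower on the TPM scale, at a mean of 62.0 ± 1.08 TPM at rest against 43.3 ± 3.74 in M1 and a mean of 54.0 ± 0.238 TPM at rest against 40.7 ± 0.605 in M1, without a call after rescaling. Of the exon junction complex and mRNA export genes, 2 were higher and 7 lower of 15 tested genes on the TPM scale (median log2 change -0.069), and 8 higher and 3 lower after rescaling (median 0.29). Thoc6 and Magohb rose from 27.7 ± 0.192 TPM at rest to 33.1 ± 1.97 TPM and from 19.2 ± 1.56 TPM at rest to 25.0 ± 3.73 TPM, and Nxt1, the partner of the export receptor, fell from 116 ± 1.26 TPM at rest to 71.0 ± 2.49 TPM. Eif4a3 had a mean of 125 ± 5.42 TPM at rest against 92.2 ± 4.25 in M1 and was called lower on the TPM scale only. Of the factors of nonsense-mediated decay, the pathway that acts on transcripts with poison exons, 3 were higher and 5 lower of 10 tested genes on the TPM scale (median log2 change -0.14), and 6 higher and 2 lower after rescaling (median 0.20). Upf3a rose from 24.9 ± 1.93 TPM at rest to 37.3 ± 0.548 TPM, whereas Smg6 and Upf3b, the paralog of Upf3a, fell from 4.80 ± 0.178 TPM at rest to 2.46 ± 0.173 TPM and from 20.9 ± 1.54 TPM at rest to 12.3 ± 0.931 TPM (limma adjusted p = 2.5e-06 and 2.9e-06).

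**Figure D4:**
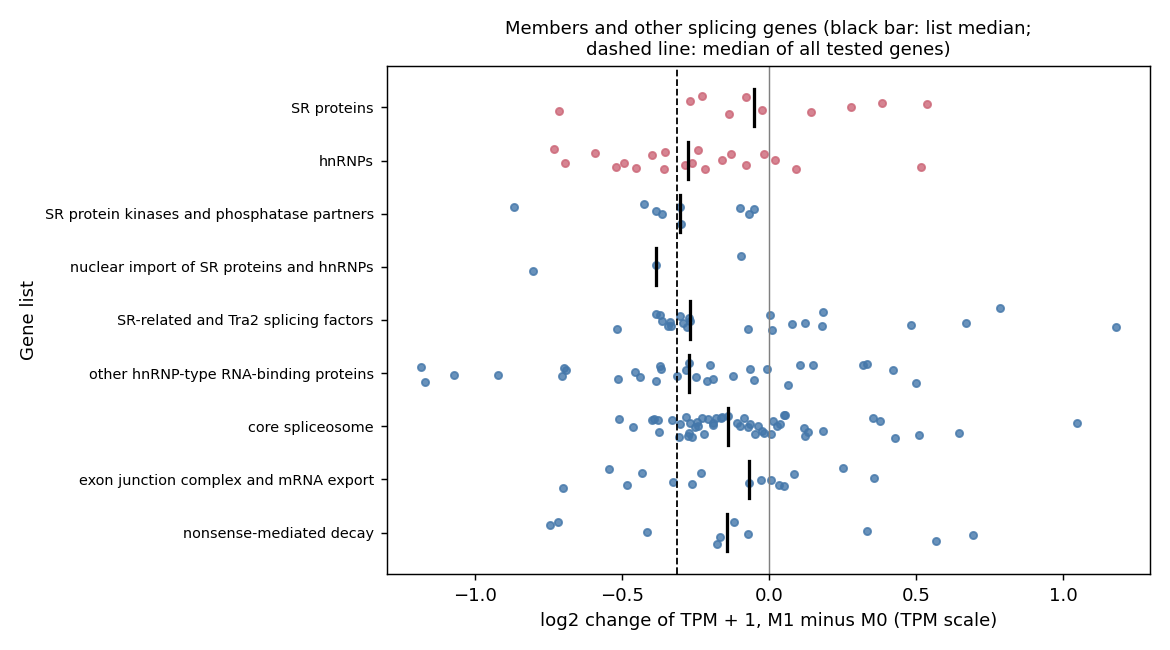
log2 change of TPM + 1, M1 minus M0, on the TPM scale (x axis) for the tested SR protein and hnRNP genes (red) and for the genes of 7 other lists of the splicing pathway (blue, y axis). Each point is a gene, black bars are list medians and the dashed line is the median of all tested genes (-0.31). The median of the SR protein genes is -0.051 and that of the hnRNP genes -0.28, with Srsf9 apart from the other SR proteins at the left and Hnrnph2 apart from the other hnRNPs at the right.

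The authors' deposited table of the same comparison held 31 of the 32 members. The authors' deposited table called 16 of them higher in M1 and 5 lower (authors' adjusted p under 0.05). Beside this stand 22.9% and 20.7% of the 18744 genes with a fold change in it. Those include many genes below the level tested here, so the shares are not like for like. Among tested genes, limma on the authors' log2 columns called 4152 higher and 3865 lower. In the authors' deposited table SR proteins numbered 7 higher and 1 lower, and hnRNPs 9 higher and 4 lower. The calls differ in part from those after rescaling. Hnrnph3 was not called there (authors' adjusted p = 0.19), and Hnrnpa0 was called lower (authors' adjusted p = 0.043). Srsf4 was not called there either (authors' adjusted p = 0.069). The log2 fold changes of the authors' deposited table were 0.90 for Srsf6, 0.89 for Hnrnph2, 0.76 for Srsf3 and 0.62 for Srsf7, and -0.37 for Hnrnpl, -0.36 for Srsf9 and -0.34 for Hnrnpll. For 20 of the 31 members, among them Hnrnph2, Srsf3, Srsf7 and Srsf9, the authors' folds are for another transcript than the TPM values. For all 30 tested members the authors' deposited table had the sign found here after rescaling. Both rest on the same libraries, so this match is no independent support for the rescaled directions.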

How the data were processed

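Tools in the submitters' processing notes are STAR 2.7.5a and HOMER 4.11.1, beside bcl2fastq and DESeq2, and the build is mm10. Their roles are not stated. The authors deposited, per the file headers, a TPM value for every gene and library, with 1 RefSeq transcript, its coordinates and its length. A second table by the authors held log2 values for every library (transform not stated) and, per the file headers, each gene's log2 fold change with its raw and adjusted p-values. TPM was tested with limma 3.58.1 (R 4.3.3, trend and robust) on log2(TPM + 1), for the 11297 genes that reached 1 TPM in 3 or more samples, with group as the only term. Fold changes on this scale understate those of low genes. Benjamini-Hochberg adjustment ran over all of them, with calls below 0.05. The procedure was tested on simulated data in which few genes changed and no library was shifted as a whole. That test cannot bear on the choice of scale.

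TPM times length was a whole multiple of 1 value per library (within 0.1), which gave the reads. Depth limits cover counting error only. For rescaling, TPM was divided by median-of-ratios factors. Exon overlaps are from GENCODE M21. Alternatives were other pseudocounts and filters, rescaling, limma without trend or robust, the authors' log2 columns, a replicate block and leaving out each sample. Values in each sample are given for the largest changes, the most abundant member of each family, the 3 most abundant members not called and those with opposite calls. Of each list up to 2 genes each way with the smallest p are given by their means, of which 1 is not reported here. The members, lists and motifs were chosen with earlier results of these data known.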

Additional observations from a re-analysis of the deposited data

How the results depend on the processing

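The scale set most of the calls. After median-of-ratios scaling 8 SR protein genes were higher and 1 lower, 9 hnRNP genes were higher and 4 lower, and 4305 of all tested genes were higher and 4002 lower. With the authors' log2 columns these were 8 and 1, 9 and 6, and 4152 and 3865. Of the 30 tested members 14 had the opposite sign under each of these settings. Their log2 changes after rescaling and with the authors' log2 columns were Hnrnpm 0.34 and 0.34, Srsf1 0.34 and 0.33, Srsf2 0.29 and 0.28, Hnrnpa2b1 0.28 and 0.27, Hnrnpab 0.23 and 0.23, Srsf10 0.22 and 0.22, Hnrnpk 0.20 and 0.20, Hnrnpu 0.14 and 0.14, Srsf4 0.13 and 0.13, Hnrnpa1 0.12 and 0.11, Hnrnpf 0.10 and 0.0922, Srsf11 0.0889 and 0.0898, Hnrnpd 0.0661 and 0.0684, Hnrnph1 0.00688 and 0.00968. With other pseudocounts, filters or moderation no member changed sign, and only Hnrnpab lost its call, without a filter and without trend and robust. Leaving out a sample turned the sign of members that were not called, with a range of -0.0083 to 0.071 for Hnrnpdl and -0.075 to 0.017 for Hnrnpm. Same-numbered samples of the groups correlated at 0.071, -0.076 and 0.037 in their deviations from the group means, so the numbers were not taken as pairs. With the replicate block 4 SR protein genes were higher and 4 lower, 1 hnRNP gene was higher and 15 lower, and of all tested genes 2143 were higher and 7016 lower. Hnrnph3, with 138 reads in its shallowest library, is the member most limited by depth.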

Other observations

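The 2 deposited tables describe 20 of the members by different transcripts, and for Srsf3 and Srsf7 the difference is a poison exon. The TPM table uses the coding transcripts NM_013663 and NM_146083. The authors' comparison table uses the non-coding NR_036613 and NR_036615, which GENCODE M21 matches to nonsense-mediated decay transcripts with 1 more exon, of 456 bases for Srsf3 (chromosome 17, 29039454 to 29039909, mm10) and of 460 bases for Srsf7 (chromosome 17, 80204622 to 80205081). The authors' log2 values were set against log2 of the reads behind TPM, centred in each library on 5526 genes with the same transcript in both tables and over 200 reads in every library. For Srsf7 the authors' value then stood 7.30%, 6.57% and 5.85% above the reads behind TPM in the M0 samples. In the M1 samples it stood 4.0%, 3.66% and 4.49% above them, without overlap between groups. For Srsf3 the authors' value stood 5.58%, 4.62% and 5.05% above in M0 and 4.95%, 4.20% and 4.84% above in M1, and the groups overlapped. The same transcript stood in both tables for 11 members, of which Hnrnph3 had too few reads for this comparison. In the other 10 the values lay between -1.66% and 1.01%, and the mean of M1 minus that of M0 between -0.899 (Srsf6) and 0.787 (Hnrnpll) percentage points, against -2.52 for Srsf7 and -0.417 for Srsf3. In 5 of these 10 the groups did not overlap either. Among these 10, the value of -1.66% was that of Hnrnpu. Its transcript was listed at 5251 bases with the TPM values and at 3643 bases with the authors' values. Hnrnph2, whose 2 transcripts also differ, stood at -1.95 points, without overlap. Nor did the groups overlap for Srsf1, Srsf5, Srsf9, Hnrnpa1, Hnrnpab, Hnrnpc, Hnrnpdl and Hnrnpm, whose transcripts differ as well. They overlapped in the other compared members with different transcripts. Srsf9, which the authors' table also describes by a non-coding transcript, stood at 1.01 points. The transform of the authors' log2 values is not stated, and whether it or reads on the extra exon gave the shift of Srsf7 was not tested. This comparison was made after the values had been seen.

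For Hnrnpul1 the authors' value, for a transcript of 2844 bases, was set against the reads of the 1287-base transcript of the TPM table. It stood 134%, 127% and 125% above them in the M0 samples, and 132%, 136% and 129% above in the M1 samples. The groups overlapped.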
